A study of Mus musculus with 4 samples.

Results

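The intergenic regions analysed here had a called peak in all 4 ATAC-seq libraries of LβT2 cells. They lay over 50 kb from the nearest start site in the authors' annotation. ATAC-seq uses a transposase that cuts and tags accessible DNA, so that reads pile up in peaks over open chromatin. LβT2 (LbT2 in the cell line labels, LbT2b in the sample titles and LβT2b in the culture notes) is an established mouse line of immortalised pituitary gonadotropes, the cells that make the gonadotropins. The 2 groups were vehicle for 6 h and 1 nM activin A for 6 h, each after a night in serum-free medium, with 2 libraries per group. Where 4 values are given for a region, they stand in the order vehicle 1, vehicle 2, activin 1, activin 2. All samples came from this 1 line, and nothing in the labels says whether libraries of a group were separate cultures, so p-values measure the spread between these samples, which may be technical.

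Regions were formed by merging peaks that shared 1 bp or more, among those with a −log10 q of 5 or more in the authors' lists. They were chosen by 2 conditions, that each of the 4 libraries had such a peak and that the strongest peak was annotated Intergenic, over 50000 bp from the annotated start. This left 366 regions, called far regions here. They were 1.72% of the 21240 merged strong regions and 3.52% of the 10390 that were strong in all 4 libraries. The most similar class, intergenic regions within 50 kb, held 1028. Of the far regions, 353 lay on autosomes and 13 on chromosome X. Since −log10 q, annotation and distance chose these regions, they are given only as description. The far regions just inside the q limit had a lowest −log10 q of 5.01 near Eps8 and 5.02 near Zfhx3, and those just outside had 4.98 near Gm815 and 4.97 near Gm23423. At the distance limit, the regions just inside lay 50023 bp from Nostrin and 50024 bp from 1700012I11Rik, and those just outside lay 49759 bp from Gm23662 and 49490 bp from Cryaa.

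Open chromatin far from genes is where distal enhancers, insulator sites and unannotated promoters are found. An enhancer can loop over other DNA to the promoter it acts on, and the nearest gene is not always its target. Gene deserts are long stretches without protein-coding genes, and those beside developmental and neuronal genes are known to hold enhancers of such genes. In gonadotropes, activin signals through receptor kinases to SMAD proteins and raises transcription of Fshb, which encodes the β chain specific to follicle-stimulating hormone.

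Sequence was shown for far regions that sat on a gene start present in RefSeq but not reflected in the authors' distance. Of 347 far regions on chromosomes covered by the RefSeq table of start sites (GRCm38.p6), 20 (5.76%) overlapped the window from 250 bases before to 50 after a start. In 12 of them the gene was an lncRNA and in 8 it was protein-coding. The stretches below are the 250 bases before the start, 5′ to 3′ in the direction of the gene. Capitals mark 3 motifs, each searched on both strands. The first is the GC box, spelled GGGCGG. The next is the CCAAT box, with the letters of its name. The last is the cyclic-AMP response element, spelled TGACGTCA. In the printed stretches a pair of different motifs overlapped only at Pak1, and only once. The first stretch is the start of the lncRNA Gm36486, minus strand, chr17:29437580-29437829, in the strongest far region of all. The next ones, Gm34507 (chr17:4908072-4908321, plus), Pak1 (chr7:97788291-97788540, plus), Sipa1l2 (chr8:125569864-125570113, minus) and Fgf12 (chr16:28753244-28753493, minus), are shown because they are rich in CpG and in these boxes.
Gm36486: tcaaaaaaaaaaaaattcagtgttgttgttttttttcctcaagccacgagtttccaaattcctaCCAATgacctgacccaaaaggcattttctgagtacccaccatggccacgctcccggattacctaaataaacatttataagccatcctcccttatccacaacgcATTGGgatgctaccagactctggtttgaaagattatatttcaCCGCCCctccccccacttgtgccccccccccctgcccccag
Gm34507: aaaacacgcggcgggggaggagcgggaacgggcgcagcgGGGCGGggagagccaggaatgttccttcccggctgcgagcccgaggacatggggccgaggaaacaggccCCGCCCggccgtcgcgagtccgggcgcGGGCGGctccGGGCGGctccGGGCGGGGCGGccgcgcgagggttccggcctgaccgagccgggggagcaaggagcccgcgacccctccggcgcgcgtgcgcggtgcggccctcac
Pak1: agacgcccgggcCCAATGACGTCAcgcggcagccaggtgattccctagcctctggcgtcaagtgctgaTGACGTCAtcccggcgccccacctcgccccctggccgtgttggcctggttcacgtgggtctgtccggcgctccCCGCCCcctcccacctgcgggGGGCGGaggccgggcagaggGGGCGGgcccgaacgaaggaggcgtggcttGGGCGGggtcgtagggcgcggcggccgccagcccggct
Sipa1l2: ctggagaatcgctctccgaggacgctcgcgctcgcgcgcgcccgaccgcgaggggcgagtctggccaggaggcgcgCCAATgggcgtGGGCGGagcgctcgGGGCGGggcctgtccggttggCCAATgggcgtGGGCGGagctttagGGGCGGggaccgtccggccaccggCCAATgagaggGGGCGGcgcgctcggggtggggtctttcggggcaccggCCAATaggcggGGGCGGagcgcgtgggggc
Fgf12: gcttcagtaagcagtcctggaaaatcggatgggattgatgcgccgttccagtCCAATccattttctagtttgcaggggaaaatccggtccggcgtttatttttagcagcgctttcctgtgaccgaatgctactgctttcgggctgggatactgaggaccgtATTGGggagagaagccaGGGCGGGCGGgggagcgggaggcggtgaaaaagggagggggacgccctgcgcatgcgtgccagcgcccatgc

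The Gm34507 stretch was 79.2% G and C with 41 CpG dinucleotides, an observed-to-expected CpG ratio of 1.07, and 6 GC boxes. Sipa1l2, a gene of a Rap GTPase-activating protein, had a ratio of 1.07, 4 CCAAT boxes and 6 GC boxes. In that stretch each of the 4 CCAAT boxes was followed, 6 bases on, by a GC box. Pak1, the gene of a kinase activated by Rac and Cdc42, had 2 response elements and 4 GC boxes, with a ratio of 0.830. At Fgf12, the gene of an intracellular fibroblast growth factor homologue, the ratio was 0.887. The Gm36486 stretch differed from these, with 46.8% G and C, 5 CpG and a ratio of 0.443. Over the 20 regions, 6 stretches (30.0%) had at least 50% G and C with a ratio of at least 0.6, against 31.0% of all 32851 start stretches. GC boxes were present in 9 of 20 (45.0%, against 32.7% of all), CCAAT boxes in 10 (50%, against 33.8%) and the response element in 1 (5%, against 1.55%). These matches describe letters and not factor binding.

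At 6 of the 20 starts the authors' nearest gene lay over 100 kb away. The region on the Fgf12 start was assigned to Mir690 at 153 kb and that on the lncRNA Gm39311 to Bmper at 358 kb. The region on the RefSeq start of Sipa1l2 was assigned to Sipa1l2 itself, at 77.1 kb. Over the 347 regions, 23 lay within 1 kb of a RefSeq start, 39 within 5 kb and 131 within 50 kb, so the label of over 50 kb from a start holds in the authors' annotation and not for every RefSeq transcript. Similarly, 26 far regions lay inside the body of a RefSeq protein-coding gene, 79 in the body of any RefSeq gene and 287 in none. None overlapped a RefSeq miRNA.

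Starts of genes that resemble each other stood out on chromosome 17. Zfp97 is a zinc finger gene, a kind of gene that often stands in arrays of copies. Far regions sat on the starts of Gm51425, Gm38396 and Gm5165 near it. The stretch before Gm38396 (chr17:17179055-17179304, plus) is printed with that of Zfp97 (chr17:17121133-17121382, plus), CCAAT boxes in capitals, to show how alike they are.
Gm38396: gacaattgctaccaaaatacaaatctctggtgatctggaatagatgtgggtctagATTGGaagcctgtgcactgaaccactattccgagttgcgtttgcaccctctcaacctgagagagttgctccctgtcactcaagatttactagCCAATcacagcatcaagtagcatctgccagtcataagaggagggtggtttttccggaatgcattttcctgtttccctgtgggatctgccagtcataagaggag
Zfp97: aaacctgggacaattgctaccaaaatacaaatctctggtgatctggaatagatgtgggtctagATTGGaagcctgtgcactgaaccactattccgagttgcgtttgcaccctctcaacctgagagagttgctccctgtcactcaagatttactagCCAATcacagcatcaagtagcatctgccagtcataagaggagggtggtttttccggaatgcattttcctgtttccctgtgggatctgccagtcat

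Of the 229 distinct 20-base stretches before the Gm38396 start, all 229 occurred before another RefSeq start, and 223 of them before Zfp97. For Gm51425 and Gm5165 the share was 51.9% and 53.8%. The Gm38396 region had −log10 q of 35.5, 21.6, 59.4 and 45.3. Its counts of high-quality reads, the alignments that a quality report counts per autosomal peak, were 0, 0, 1 and 1. The Gm51425 region had 357, 396, 711 and 461 such reads, and the Gm5165 region had 391, 433, 739 and 538. Peak strength and high-quality reads thus parted at Gm38396 and not at the other copies. The part of repeated sequence in this was not tested.

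Each library held between 172146474 and 224226184 high-quality autosomal reads. Vehicle 2 stood apart with 178358 called peaks, against 70692 to 85112 in the others, but 12377 to 19819 peaks per library had a −log10 q of 5 or more. Far regions held from 0.0548% to 0.0873% of the reads. As a check of the cell type, 7 of 10 gonadotrope markers had a called peak centred within 1 kb of their annotated start in all 4 libraries. Pitx1 and Foxl2 had one in 3 libraries and Fshb in none. None of 6 markers of other pituitary lineages, of 3 fibroblast markers or of 2 immune markers had one in all 4. Gh and Pomc had one in 2 libraries and Tbx19 in 1. Peaks of any strength counted here. At a −log10 q of 5 or more, only Cga, Lhb, Gnrhr and Egr1 had such a peak in all 4.

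The far regions differed widely in how many high-quality reads they held. Density is given as high-quality reads in a library's peak, divided by the length of that peak in kb and by the library's autosomal high-quality reads in units of 1000000. The genome average on that scale is 0.406. Of the 353 autosomal far regions, 72 (20.4%, 95% Wilson interval 16.5 to 24.9) had a mean density under 1 and are called read-poor. The limit of 1 was chosen after the densities were seen. The highest read-poor mean was 0.828 and the lowest of the other 281, called read-rich, was 1.03, and 16 regions lay between 0.5 and 1.5. The median of the means was 0.0582 for read-poor and 2.72 for read-rich regions. All 4 libraries of 5 regions held 0 high-quality reads. One of these, chr12:62176892-62178021 between Lrfn5 and Fscb, had −log10 q of 5.85, 8.79, 17.9 and 15.6.

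**Figure D1:**
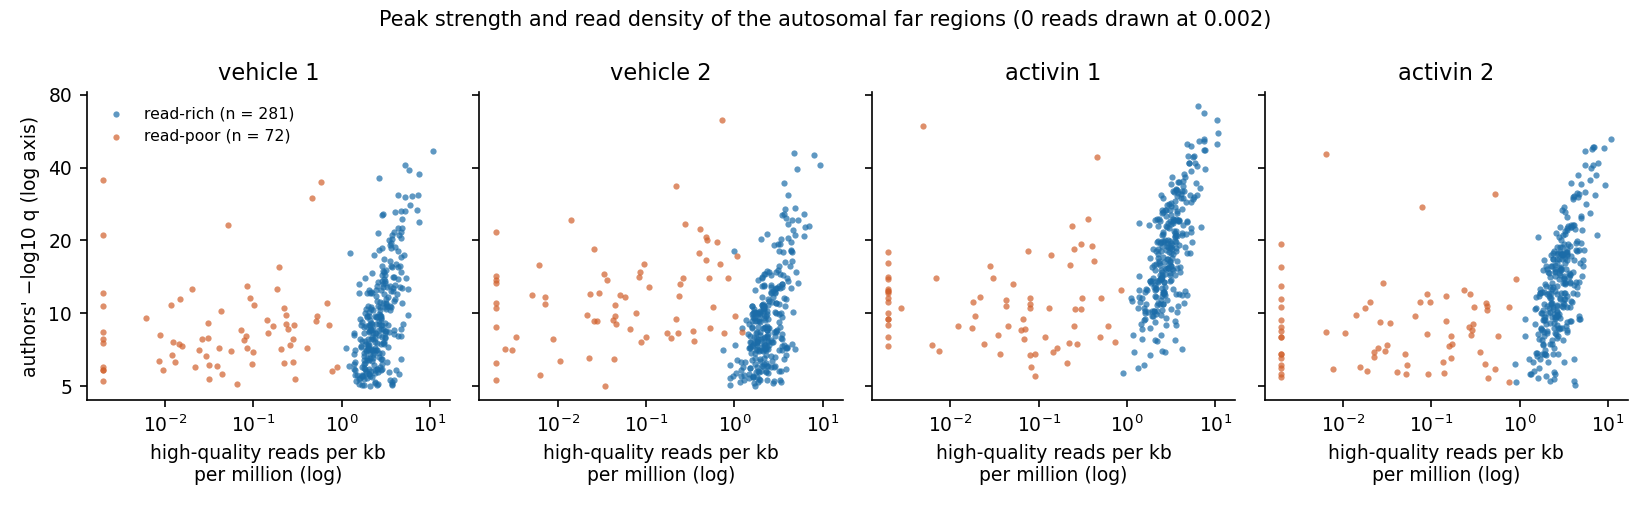
Each panel is 1 library, and each point is 1 of the 353 autosomal far regions. The x axis is high-quality reads per kb per 1000000 reads on a log scale and the y axis is the authors' −log10 q on a log scale. The 281 read-rich regions lie at higher density over a wide range of −log10 q. Most of the 72 read-poor regions lie to the left of them at overlapping −log10 q.

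Read-poor regions had peaks of ordinary strength in the authors' lists. Their median −log10 q was 7.85, 10.97, 10.5 and 8.24, and for read-rich regions it was 8.93, 8.73, 17.8 and 12.8. Their median fold over background in the lists was 4.09, 4.22, 4.13 and 4.16, against 3.90, 3.61, 4.36 and 4.32. The libraries ranked differently in the 2 groups. Vehicle 2 had the highest −log10 q in 37 of the 72 read-poor regions, and activin 1 had it in 242 of the 281 read-rich ones. The share of read-poor regions was 20.4% among far regions and 11.1% (interval 9.29 to 13.2) among intergenic regions within 50 kb. It was 9.92% in introns, 2.44% in exons and gene ends and 0.615% at promoters.

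The strongest far regions by the lowest −log10 q over the libraries were nearly all read-rich. The first, chr17:29436855-29437734, lay between Fgd2, the gene of a Cdc42 exchange factor, and Pim1, the gene of a serine/threonine kinase. Its densities were 10.7, 9.28, 10.7 and 10.9, and vehicle 1 was level with activin 1. Their mean of 10.4 was the highest of all 353. The second, chr18:85658569-85659659, was also the farthest from an annotated start, 690 kb from the snRNA gene Gm25453. It stood in a gap of 1413 kb between Fbxo15 and Neto1, which encodes an auxiliary subunit of glutamate receptors. Its densities were 5.76, 5.06, 6.43 and 6.54. A weaker far region, chr18:85668756-85670566, stood beside it with densities of 3.73, 2.46, 2.44 and 2.24.

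The region chr15:32778524-32779893 lay between Sema5a, an axon guidance gene, and Sdc2, the gene of the proteoglycan syndecan-2, with densities of 2.66, 3.65, 4.72 and 3.81. A region between Galr1, a galanin receptor gene, and Mbp, the myelin basic protein gene, at chr18:82461949-82462533, 12.6 kb from the body of Mbp, had 7.33, 8.06, 10.5 and 8.95. The region chr12:29290748-29291397 lay 236 kb from the body of Myt1l, a neuronal transcription factor gene, and had 4.31, 4.06, 5.52 and 5.54. Here and at the Galr1 region both activin libraries were above both vehicle libraries. They were too at the Sema5a region, by a small margin. This order was shared by 63.1% of all strong autosomal regions. After centring on library medians (test below), the log2 difference was 0.13 at Myt1l, 0.06 at Galr1 and 0.17 at Sema5a. The adjusted p in limma was 0.680, 0.902 and 0.790. The Sema5a peaks were 1332, 784, 944 and 1048 bp long, so its densities were taken over unlike intervals. The region near Tmx3 at chr18:90579112-90580094 had 5.16, 4.75, 7.44 and 6.89. A region at chr16:89985597-89987525, inside the RefSeq body of Tiam1, a Rac exchange factor gene, had 6.32, 4.81, 7.37 and 6.74. Between Ywhaz and Zfp706, chr15:36938127-36939138 had 7.497, 6.08, 6.64 and 7.27, and the groups overlapped. Also among the 10 strongest, chr16:50030431-50030765 between Cd47 and Bbx, was read-poor, with 33, 54, 32 and 28 reads at −log10 q of 35.0, 62.8, 44.3 and 31.1.

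Read density was lower in far regions than in intergenic regions within 50 kb in each library. The medians were 2.25, 2.06, 2.55 and 2.49 for far regions, and 3.02, 2.66, 3.39 and 3.21 for those within 50 kb. The mean difference was −0.731 ± 0.102 (SD over 4 libraries), lower in 4 of 4 libraries (exact paired permutation p = 0.13, 2-sided, the smallest 4 pairs can give). Without read-poor regions on either side, a comparison added after the data were seen, the difference was −0.596 and again lower in each library. Far intervals were longer by 34.0 ± 9.65 bp (SD, n = 4), in 4 of 4 libraries (exact paired permutation p = 0.13). Without read-poor regions that difference was 6.50 bp, with the far regions shorter in both vehicle libraries and longer in both activin libraries. At a −log10 q of at least 10 the length difference was 1.25 bp and the density difference −0.321, and without vehicle 1 the length difference was 53.7 bp. Median interval lengths of the far regions were 649.5, 714.5, 859 and 761.5 bp.

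**Figure D2:**
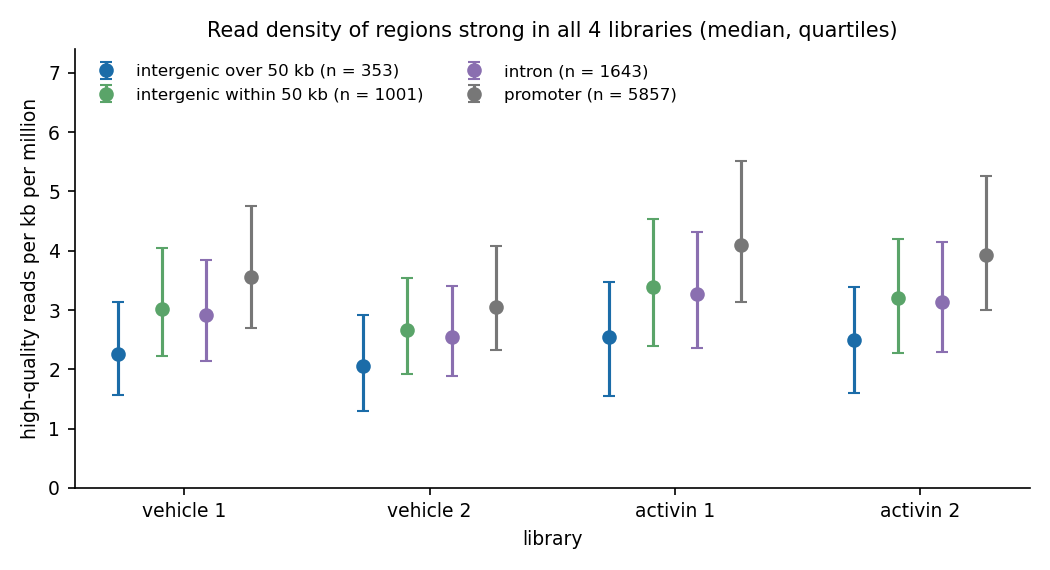
Points are the median and bars the quartiles of high-quality reads per kb per 1000000 reads, per library, for autosomal regions strong in all 4 libraries. Far regions have the lowest median in every library, from 2.06 to 2.55, and promoters the highest, from 3.06 to 4.10.

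Activin against vehicle was tested with limma across 13871 autosomal regions with 1 matching peak in each library, 247 of them far regions. No far region passed an adjusted p of 0.05 (Benjamini-Hochberg over all regions), and 0.0% of all regions did. At an unadjusted p under 0.05 there were 26 far regions (10.5%), beside 9.53% of all regions. Of these, 10 (4.05%) had higher values with activin, beside 3.62%, and 16 (6.48%) had lower ones, beside 5.91%. Those shares are near the background. With each library centred on its median, the median log2 difference was −0.00509 over the far regions and −0.00489 over all regions. When libraries were scaled to all high-quality reads instead, the median moved to 0.27 over the far regions and to 0.27 over all regions. Then 12 far regions were called, 11 higher and 1 lower, beside 4.36% of all regions. The lower one, between Dok5 and Cbln4 on chromosome 2, had 33, 37, 0 and 39 reads, so that 1 library held the difference.

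Among the far regions with the smallest p, neighbours of cell adhesion or guidance genes appeared in both directions. Neuronal adhesion and guidance genes flanked 14.5% of all far regions. Of those with higher values in activin, chr1:115512099-115513522 lay 171 kb from Cntnap5a, a gene of the neurexin-like contactin-associated proteins. Its densities were 1.63, 1.35, 2.77 and 2.36, and the centred log2 difference was 0.51 with an SE of 0.142 (adjusted p in limma, 0.405). Its peaks were 1025, 1424, 1038 and 948 bp long, and without division by length the difference was 0.08 (adjusted p in limma, 0.906). A region between Sntb1 and Has2, a hyaluronan synthase gene, chr15:55966136-55967794, had 2.12, 1.95, 3.58 and 2.97, a centred difference of 0.41, or 0.26 without division by length. At each of these both activin libraries stood above both vehicle libraries. Others were the Tmx3 region given above and chr17:58643213-58644277 between Cntnap5c and Pdzph1, with 2.25, 2.01, 3.65 and 2.93. The regions near Cntnap5a, Has2 and Cntnap5c passed an adjusted p of 0.05 when scaled to all high-quality reads, and the Tmx3 region did not.

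Among those with lower values in activin, the smallest p belonged to chr9:25400683-25401253 between Septin7 and Eepd1. Its densities were 2.98, 2.82, 2.71 and 2.38, and the centred log2 difference was −0.46 with an SE of 0.115 (adjusted p in limma, 0.405). The read-poor region chr8:62054769-62055126 lay 1.92 kb from the body of Anxa10 and had 0.682, 0.695, 0.424 and 0.413. Its difference was −0.97 with an SE of 0.268 (adjusted p in limma, 0.405). At both, the activin libraries lay under the vehicle libraries. The region chr16:21382261-21382948 between Ephb3 and Vps8 had 3.73, 3.37, 3.65 and 3.21, which overlap between groups, and a centred difference of −0.32, or −0.20 without division by length. The read-poor region chr5:68436740-68438041 had 15, 3, 0 and 0 reads, too few to read a fold from. The last, chr2:178519676-178520647, lay 32.3 kb from Cdh26, a cadherin gene, with 3.86, 3.22, 3.70 and 3.17, overlapping too. Its centred difference was −0.31, or −0.13 without division by length. When scaled to all high-quality reads, the difference was −0.19 near Septin7, −0.70 near Anxa10, −0.05 near Ephb3 and −0.04 near Cdh26. Of the 186 read-rich far regions tested, 20 (10.8%) had an unadjusted p under 0.05, 10 in each direction, with a median log2 difference of 0.01. For the 61 read-poor ones the median was −0.34, also after centring. Scaling to all high-quality reads instead raises every difference by the same amount. At the median of all regions it went from −0.00489 to 0.27. The part of scaling in the read-poor median was not tested.

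**Figure D3:**
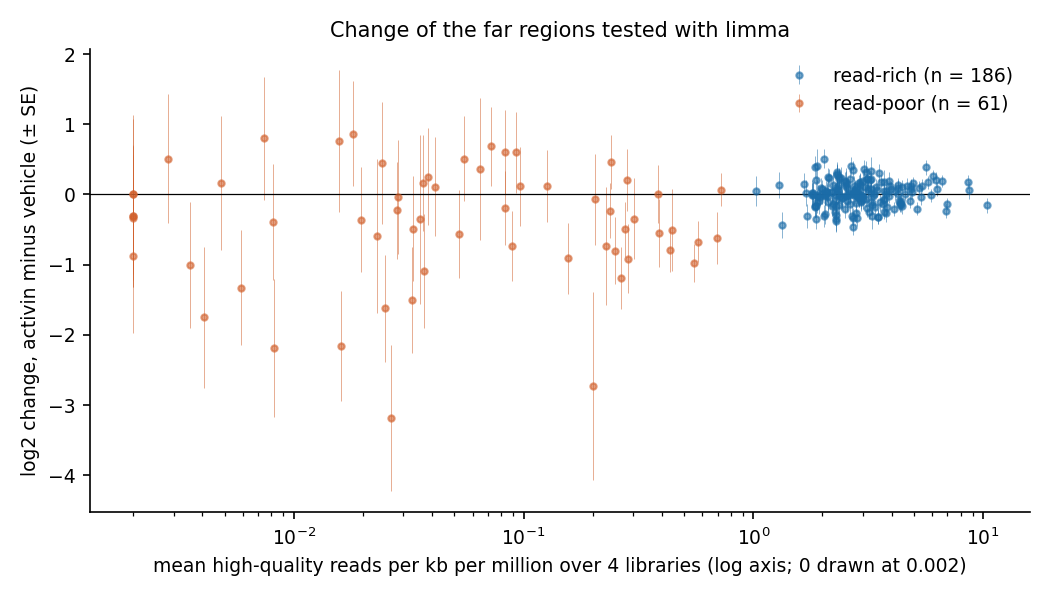
Each point is 1 of the 247 far regions tested, with the mean density over 4 libraries on a log x axis and the log2 change, activin minus vehicle, with its standard error on the y axis. The 186 read-rich regions lie between −0.46 and 0.51, and the 61 read-poor regions scatter from −3.19 to 0.87. A mean of 0 is drawn at 0.002.

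The mean over libraries of the median density was 2.15 ± 0.137 for vehicle and 2.52 ± 0.0398 for activin (SD, n = 2 each). The difference of 0.364 had an exact permutation p of 0.33, 2-sided, the smallest that 2 against 2 can give. It was 0.204 without vehicle 2 and 0.408 over read-rich regions alone. Divided by the median density of all regions strong in all 4 libraries, the direction turned, with 0.701 ± 0.0209 for vehicle and 0.681 ± 0.0109 for activin (difference −0.0197, exact permutation p = 0.667). Both activin libraries exceeded both vehicle libraries in density at 166 of 353 far regions (47.0%), beside 63.1% of all strong regions, and were below them at 37 (10.5%), beside 3.11%. For intergenic regions within 50 kb these shares were 47.3% and 4.80%. In −log10 q they were above at 217 of 366 (59.3%), beside 75.6%, and below at 15 (4.10%), beside 1.05%, with 68.5% and 2.14% for those within 50 kb. Their intervals were longer at 147 (40.2%), beside 44.3%, and shorter at 25 (6.83%), beside 4.64%. Among read-rich regions the density shares were 56.2% above and 6.76% below for far regions, beside 65.3% and 2.33% for all. Enrichment at start sites was also higher in the activin libraries, 3.12 and 3.04 against 2.72 and 2.48, and its part in these orders was not tested.

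The far regions were flanked by 557 different RefSeq protein-coding genes. The gap between the flanking gene bodies had a median of 522 kb and reached 4511 kb. A gap of 500 kb or more, called a desert here, held 173 far regions (47.3%, 95% Wilson interval 42.2 to 52.4). A gap of 1 Mb or more held 93 and one of 2 Mb or more held 35. Among intergenic regions within 50 kb the desert share was 10.0%, but the distance in the rule itself favours long gaps. When the bodies of all RefSeq genes, noncoding ones included, bounded the gaps, the share of far regions in gaps of 500 kb or more was 6.56%, so most of these deserts hold noncoding genes.

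Another measure was the number of far regions per length of sequence far from protein-coding genes. The rule measured distance from the authors' annotated starts instead, noncoding ones included. Some far regions thus lay outside this sequence, and not all of it could hold one. Sequence over 50 kb from both flanking genes covered 941 Mb of gaps over 100 kb and held 257 far regions, 27.3 per 100 Mb, chromosome X included. This density was lower in longer gaps, from 41.8 per 100 Mb in gaps of 100 to 250 kb to 37.8, 33.6, 22.7 and then 14.2 in gaps of 2 Mb and more. Over autosomal sequence alone, read-rich regions went from 38.6 to 9.12 per 100 Mb over the same classes. Read-poor regions stayed between 3.70 and 7.99 with no such order. Read-poor regions thus made up 17.1% of the autosomal far regions in the shortest of these gaps and 39.4% in the longest.

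**Figure D4:**
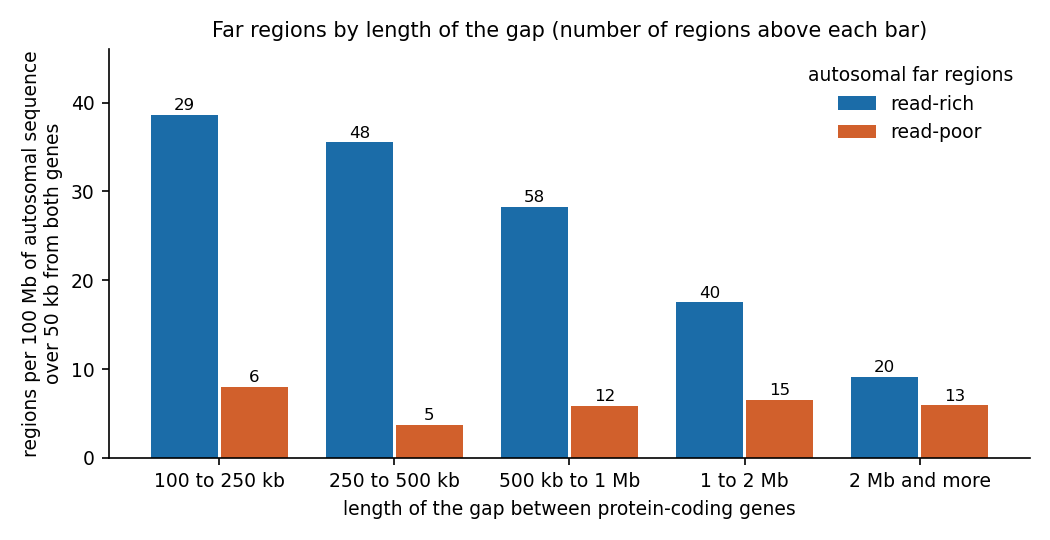
Bars show the number of autosomal far regions per 100 Mb of autosomal sequence over 50 kb from both flanking protein-coding genes, by length of the gap, with the number of regions above each bar. Read-rich regions go from 38.6 to 9.12 per 100 Mb with gap length and read-poor regions stay between 3.70 and 7.99.

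The longest gap with a far region, 4511 kb between Celf4, an RNA-binding protein gene, and Pik3c3, a phosphoinositide kinase gene, held chr18:28629037-28630386. That region was read-poor, with 7, 7, 18 and 4 reads. The gap of 4278 kb between Cntnap5b and Cdh20, both genes of cell adhesion proteins, held chr1:101019534-101020185 with densities of 2.64, 2.33, 2.73 and 3.28. The gap of 3820 kb between Dsel and Cntnap5a held chr1:115558442-115559151, with 2.20, 2.18, 2.85 and 2.89. The gap of 3676 kb between Pcdh7, a protocadherin gene, and G6pd2 held the read-poor chr5:58924995-58926401, with 7, 20, 7 and 2 reads. Between Igfbp7 and Adgrl3, a latrophilin gene, a gap of 3611 kb held chr5:78872042-78872437 with 3.01, 2.36, 3.46 and 2.90. In these 5 longest gaps, 3 of the strongest regions were thus read-rich.

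Besides the Neto1 region and its neighbour, the farthest regions from an annotated start were chr12:42966811-42967306, 685 kb away between Immp2l and Dnajb9, and chr9:11069826-11071160, 651 kb away and 165 kb from the body of Cntn5, a contactin gene. Next came chr15:19665460-19666717, 519 kb away between the cadherin genes Cdh10 and Cdh12. Its densities were 1.93, 1.59, 2.58 and 2.42, and both activin libraries were above both vehicle libraries. This order was shared by 63.1% of all strong autosomal regions. The centred log2 difference was 0.23 (adjusted p in limma, 0.599). The Cntn5 region had 1.22, 0.891, 0.913 and 1.27, and the groups overlapped. The Immp2l region had 2.16, 1.70, 1.92 and 1.74. The median distance over all far regions was 88.7 kb, with 159 over 100 kb and 6 over 500 kb.

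Genes of neuronal adhesion and guidance (cadherins, protocadherins, contactins, neurexins, semaphorins, ephrins, Slit and Robo proteins and the like) flanked 53 far regions (14.5%), of which 43 were in deserts. This share was 3.50% for intergenic regions within 50 kb. Of the sequence over 50 kb from genes in gaps over 100 kb, however, 17.4% was flanked by such a gene, and of the far regions in that sequence 17.1% were. Within that sequence, the share of far regions was thus near the share of the sequence. The far regions outside it were not compared in this way. Far regions flanked by such genes included the Sema5a, Cntnap5b and Cntnap5a regions. Another was chr16:42189912-42190999 between Lsamp and Gap43, genes of neurite growth, with 3.98, 3.36, 5.04 and 4.71. Ion channel genes flanked 17 far regions (4.64%), and olfactory and vomeronasal receptor genes flanked 2. In the sequence over 50 kb from genes, ion channel genes flanked 11 far regions (4.28%), beside 4.16% of the sequence.

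Developmental transcription factor genes flanked 22 far regions (6.01%, against 5.54% within 50 kb). In the sequence over 50 kb from genes in gaps over 100 kb, they flanked 18 far regions (7.004%), beside 8.92% of that sequence. A pair stood between Zeb1, an E-box repressor gene, and Arhgap12 on chromosome 18. The region chr18:5989542-5990320 had densities of 5.19, 3.45, 5.35 and 5.43, and chr18:5819260-5820783 had 2.93, 2.04, 4.20 and 3.26. The Foxp1 neighbour chr6:98726139-98727495 had 1.82, 1.87, 2.83 and 2.76, with no overlap between groups. Its centred log2 difference was 0.32 with an SE of 0.133 (adjusted p in limma, 0.505). The neighbours of Six2 (chr17:85748613-85749532) and Sox6 (chr7:115290658-115291399) had 3.93, 3.47, 5.31 and 4.29, and 3.61, 2.94, 3.55 and 3.42.

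Of the gonadotrope list, Pitx1 and Isl1 flanked 3 far regions. In the sequence over 50 kb from genes in gaps over 100 kb, the list flanked 2 far regions (0.778%), beside 0.529% of that sequence. Pitx1 encodes a homeobox factor of pituitary cells that acts on gonadotropin genes. Both Pitx1 regions lay in the gap between it and Macroh2a1. The nearer one, chr13:55963151-55963837, 127 kb from Pitx1, had 2.50, 2.41, 3.46 and 3.26, a centred log2 difference of 0.18 with an SE of 0.110 (adjusted p in limma, 0.625). The farther one, chr13:56053670-56055508, had 3.09, 2.48, 3.70 and 3.41, a difference of 0.08 (adjusted p in limma, 0.822). At both, the activin libraries were above the vehicle libraries in density, as at 63.1% of all strong autosomal regions. The region beside Isl1, a LIM homeobox gene, at chr13:115990430-115991121 had 1.69, 2.06, 2.11 and 1.79, and the groups overlapped.

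Of the activin and TGFβ family list, Smad7 and Id4 flanked 1 each. In the sequence over 50 kb from genes in gaps over 100 kb, the list flanked 1 far region (0.389%), beside 1.53% of that sequence. Smad7 encodes the inhibitory SMAD that SMAD signalling itself induces. The region between it and Ctif, chr18:75419136-75419993, had 4.62, 3.94, 4.25 and 5.00, so the groups overlapped. The region between Rnf144b and Id4, which encodes an inhibitor of basic helix-loop-helix factors, at chr13:47526887-47528408, was read-poor with 7, 13, 4 and 2 reads. No far region lay within 1 Mb of Fshb, Lhb, Cga or Nr5a1. The 2 within 1 Mb of Gnrhr, the gonadotropin-releasing hormone receptor gene, lay 408 kb and 704 kb from it. The nearer, chr5:85772019-85773088, had 1.93, 1.63, 2.15 and 1.70, and the other, chr5:85476473-85477120, had 3.06, 2.93, 4.41 and 2.88. At both, the second activin library was within the vehicle range or under it.

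Far regions were mostly solitary. The median distance to the next far region was 1353 kb, to any other strong region 205 kb and to a strong promoter region 334 kb. Of the 366, 65 (17.8%, 95% Wilson interval 14.2 to 22.0) had another within 50 kb, in 29 clusters, of which 24 were pairs. The same measure gave 23.4% for intergenic regions within 50 kb, 22.5% for introns, 45.1% for promoters and 14.0% for exons and gene ends, classes that differ in number. By gaps between protein-coding genes, 265 gaps held the far regions outside gene bodies, and 56 of them held more than 1, together 131 regions.

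The largest cluster had 5 far regions in 75.1 kb between 1600014C23Rik and Vegfa, the vascular endothelial growth factor gene. The first, chr17:45847693-45848907, had densities of 7.49, 7.03, 10.5 and 9.33. The middle one, chr17:45889311-45890144, had 7.08, 6.23, 7.51 and 7.10, and the next, chr17:45905261-45906727, had 4.84, 4.97, 6.27 and 5.35. The last, chr17:45921623-45922778, nearest to Vegfa at 94.2 kb, had 4.31, 3.96, 5.18 and 4.87. In these 4 both activin libraries were above both vehicle libraries, at the middle one only by 7.10 against 7.08. This order was shared by 56.2% of read-rich far regions and 63.1% of all strong autosomal regions. In the second, chr17:45870718-45873799, with 5.58, 4.60, 4.58 and 4.41, the activin libraries were below. There the authors' peak was 611 and 904 bp long in the vehicle libraries but 2839 and 1992 bp long in the activin libraries, so that densities were taken over unlike intervals and the region was not tested. After centring, the log2 difference was 0.17 at the first (adjusted p in limma, 0.604) and −0.14 at the middle one (adjusted p in limma, 0.648). At the next and the last it was −0.04 and 0.01.

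**Figure D5:**
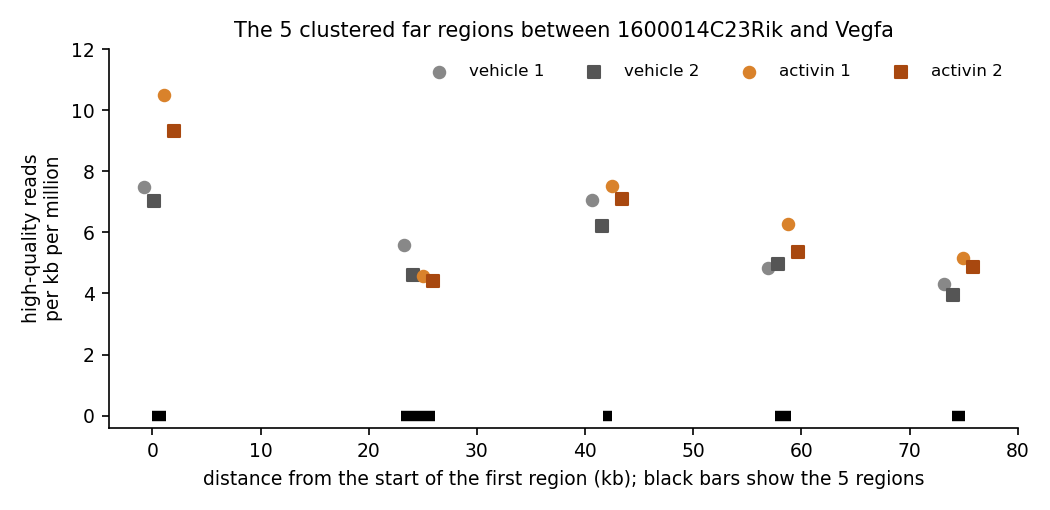
The x axis is the distance in kb from the start of the first of the 5 clustered regions (black bars), and the y axis is high-quality reads per kb per 1000000 reads in each of the 4 libraries, with points set slightly apart sideways. The first region is highest, from 7.03 to 10.5. Both activin libraries lie above both vehicle libraries in all but the second region, an order shared by 63.1% of all strong autosomal regions. Centred on all regions, the log2 differences of the 4 regions tested lie between −0.14 and 0.17.

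Each of the other 4 largest clusters had 3 far regions. That between Stk24 and Slc15a1, a peptide transporter gene, spanned 18.6 kb on chromosome 14, and its regions had similar mean densities of 2.62, 2.56 and 2.54. The cluster at Sipa1l2 on chromosome 8 spanned 32.0 kb and began with the Sipa1l2 start printed above, whose densities were 3.21, 2.39, 3.15 and 2.47. Its second region sat on the start of the lncRNA 4930567H12Rik, and its last had a mean of 2.30. In the cluster between Dyrk1a, a kinase gene, and Kcnj6, a potassium channel gene, the middle region sat on the start of the lncRNA Gm41507. It had 5.19, 4.60, 6.55 and 6.76, between chr16:94704714-94706317 and a read-poor region with a mean of 0.435. The former had 3.91, 3.85, 2.40 and 2.50, over peaks of 290, 281, 1442 and 1270 bp, again unlike intervals. Without read-poor regions, 59 of 281 (21.0%) had another within 50 kb.

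The far regions were uneven across chromosomes. Chromosome 16 held 38, or 38.8 per 100 Mb, and chromosome 17 held 30, or 31.6 per 100 Mb. Chromosome 3 held 9, or 5.63 per 100 Mb. Reads per Mb relative to the median chromosome were 1.14 to 1.17 on chromosome 16, 1.38 to 1.41 on chromosome 17 and 0.534 to 0.559 on chromosome 3 over the libraries. Chromosome 2, with 1.33 to 1.35, had 9.89 far regions per 100 Mb. The part of these unequal reads in the counts was not tested.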

How the data were processed

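ATAC-seq was analysed in 4 LβT2 libraries, 2 treated with vehicle and 2 with activin A, grouped by their titles. The authors used Bowtie2, MACS2 and HOMER on GRCm38/mm10, per the submitters' processing notes, which give no versions. Peaks were called per library. The authors deposited for each peak a score, a fold enrichment (a ratio to background), and the −log10 of its p and q. HOMER's annotatePeaks.pl gave feature and distance, and ataqv 1.3.1 gave reads per autosomal peak, both per the file headers. Because peaks were called per library, the interval in which reads were counted differs between libraries, so densities and not a count model were compared.

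Peaks were merged as in the rule. Regions merged from all called peaks, and holding 1 autosomal peak per library were used where the 4 peaks had at least 50% of their union in common. They were tested with limma 3.58.1 in R 4.3.3 on log2((reads + 1) per kb of the own peak), centred on each library's median, activin minus vehicle. The added read draws the activin and vehicle values of regions with few reads together before centring. Relative to scaling to all high-quality reads, centring then lowers the change of every region by the same amount. The change of regions with few reads may thus be understated or, where it is a fall with activin, overstated. The step was tested on simulated data. Genes, gaps and start sites are from the RefSeq table of GRCm38.p6, the build of the files; no genome sequence was used here. Shares have 95% Wilson intervals, which cover counting error only.

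The far regions and the gene lists were chosen with earlier results of these data known. Regions are named by rule: the 10 with the highest lowest −log10 q, the 5 smallest p in each direction, the 5 farthest, the 5 largest clusters, the strongest in each of the 5 longest gaps, up to 6 beside each gene list, those within 1 Mb of Fshb, Lhb, Cga, Gnrhr and Nr5a1, and those at the limits. A few regions that the rule names are not reported here. Regions on RefSeq starts and regions without reads were picked after their values were seen. Alternatives tried were other q, distance and gap limits, merging, scaling, pseudocount, filters, a replicate block, each library left out, and, added later, read-rich regions only.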

Additional observations from a re-analysis of the deposited data

How the results depend on the processing

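Leaving out each library in turn gave 369 to 439 far regions. The number was 89 at a −log10 q of at least 10 and 159 at a distance over 100 kb. The share with another far region within reach was 24.3% at 100 kb and 6.74% at a −log10 q of at least 10. The desert share was 25.4% for gaps of 1 Mb, 6.56% with all RefSeq genes and 37.1% at a −log10 q of at least 10. Activin minus vehicle in median density was −0.0197 relative to all strong regions. Scaling to all high-quality reads gave 12 called far regions and a median log2 change of 0.27, with 74 far regions at an unadjusted p under 0.05 in place of 26. Leaving out each library in turn gave 0 to 1 called far regions, the 1 without activin 2 being the region between Dok5 and Cbln4, and a median log2 change of −0.0515 to −0.00607, with the lowest without vehicle 1. The cause of these shifts was not tested. Libraries with the same replicate number did not deviate together (correlation −0.0252 over 13871 regions), and with a replicate block 0 far regions were called and the median log2 change was −0.01. Among the 10 far regions with the smallest p, 98 of 102 alternative values kept direction and side of the threshold, 4 passed it when scaled to all high-quality reads, and 0 reversed. With read-rich regions alone, an alternative chosen after seeing the data, the desert share was 44.1%. With 2 libraries per group, no exact test of activin against vehicle could go below 0.33.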
